A study of Danio rerio with 2 samples.

Results

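The genes of bone morphogenetic protein (BMP), TGF-beta and Smad signalling were examined in pigment cell preparations from zebrafish fins. They were taken by name, as the probe sets whose single platform gene symbol begins as a BMP, GDF, inhibin, TGF-beta, activin or TGF-beta receptor, Smad, noggin, chordin, gremlin or follistatin symbol does, or is id1, id2, id3 or id4. The rule found 55 probe sets for 43 genes, of 8793 genes named on the array. No probe set with several symbols matched, and no gene named tgfb2, tgfb3, smad4 or id2 was among those found. They comprise 16 ligands, 8 receptors, 7 Smads, 8 secreted antagonists, 3 id targets and the kinase bmp2k, which matched by its name alone.

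The study profiled melanophores, the black pigment cells, and xanthophores, the yellow ones, on 2 Affymetrix arrays, 1 per preparation. Both preparations came from the caudal and anal fins of wild-type adults over 2 months old, bought from a pet shop with no strain named; the protocol pools the fins of 1000 fish and digests them with trypsin and then collagenase. Either a cell sorter or a centrifuge was used for the separation, and the design text does not tie a method to a sample. The labels contradict each other: the sample titled melanophores is given as xanthophores in its source name and cell type field, and the other sample the reverse. The arrays are therefore named by their titles, and each ratio is the melanophore-titled over the xanthophore-titled array. Most measured pigment markers went against the titles. Of 7 measured xanthophore genes, 5 passed 2-fold towards the array titled melanophores, where 15.5% of all measured genes did. None passed towards the other, where 4.09% did and slc2a15b leaned (3444.2 against 4348.7). Of the 7, csf1ra (118.6 against 1.9) and pax7a (86.7 against 23.4) were measured through the signal of the array titled melanophores alone, which fixed their direction. The xanthophore genes bco1 and scarb1 had 32.3 and 22.5 times as much signal on the array titled melanophores, and the melanin enzyme dct 11.8 times as much on the array titled xanthophores, while tyrosinase, tyr, lay near the array medians (48.4 against 39.2).

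Ligands of this family bind pairs of type I and type II receptors, and the type I receptor then phosphorylates Smads, which enter the nucleus and control genes. BMPs and some of the GDFs act mainly through Smad1, Smad5 and Smad9, and activins and TGF-beta through Smad2 and Smad3. Smad6 and Smad7 dampen the signal inside the cell, noggin, chordin and follistatin bind ligands outside it, and the id genes, which encode helix-loop-helix inhibitors of transcription factors, are direct targets of BMP signalling. In fish fins BMP signals act in bone formation and regeneration of the rays, and activin is needed for regeneration.

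Values are MAS 5.0 signal intensities on a linear scale. The median signal was 47.2 for the melanophore-titled array and 43.5 for the other, and a signal under its own array's median was raised to that median before a ratio was taken. Such a ratio is a lower bound. A gene counted as measured when at least 1 of its signals reached the median. With 1 array per preparation there is no replicate spread and no test. The only error at hand is technical: measured probe sets of the same gene differed in log2 ratio with an SD of 0.46 over 581 genes, a factor of 1.38. The melanophore-titled array was also the brighter one. All 18 of its hybridisation spike-in probe sets were brighter, by a median log2 ratio of 0.38 (a factor of 1.30), and the median of the 5504 measured named genes was 0.37, which became -0.01 with the spike-ins set equal. Folds with the spike-ins set equal are given beside many of the deposited ones for this reason. In such bulk preparations, fewer cells of a type and less RNA per cell cannot be told apart.

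Of the 43 genes, 25 were measured, and some passed 2-fold in each direction. The ligands bmp2b, bmp3, bmp4 and bmp5 and the receptor tgfbr2b passed 2-fold towards the xanthophore-titled array, and the activin subunits inhbaa and inhbb, the effector smad2, the receptor acvrl1 and bmp2k towards the melanophore-titled array. The count of 5 on the xanthophore-titled array is 20% of the measured members, where 4.09% of all measured genes passed the same fold in that direction. The 5 on the melanophore-titled array are also 20%, where 15.5% of all measured genes did, a share near the background. They include bmp2k, which matched by its name alone. Of the others, 11 lay within 2-fold and 4 have only a bound under 2-fold. The median log2 ratio of the measured members was -0.11, beside the 0.37 of all measured genes. This includes 6 members measured through their xanthophore-titled signal alone. Over the 19 members with both signals at or above the medians it was 0.35, with 3 past 2-fold towards the xanthophore-titled array and 5 towards the other. The same selection was not made for all genes, so the values of all measured genes above are no background for these 19.

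The deposited brightness of the arrays bears on these counts. With the spike-ins set equal 9 members passed 2-fold towards the xanthophore-titled array (36%, background 8.21%) and 4 towards the melanophore-titled array (16%, background 6.56%). When ribosomal protein genes were set equal instead, 2 members (background 2.31%) and 7 (background 40.9%) passed, and the median turned to 0.39. A gene that was measured through its bright signal alone had to differ, which applies to bmp4 and bmp5 among the 10. No count here is evidence of its own for that reason.

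**Figure D1:**
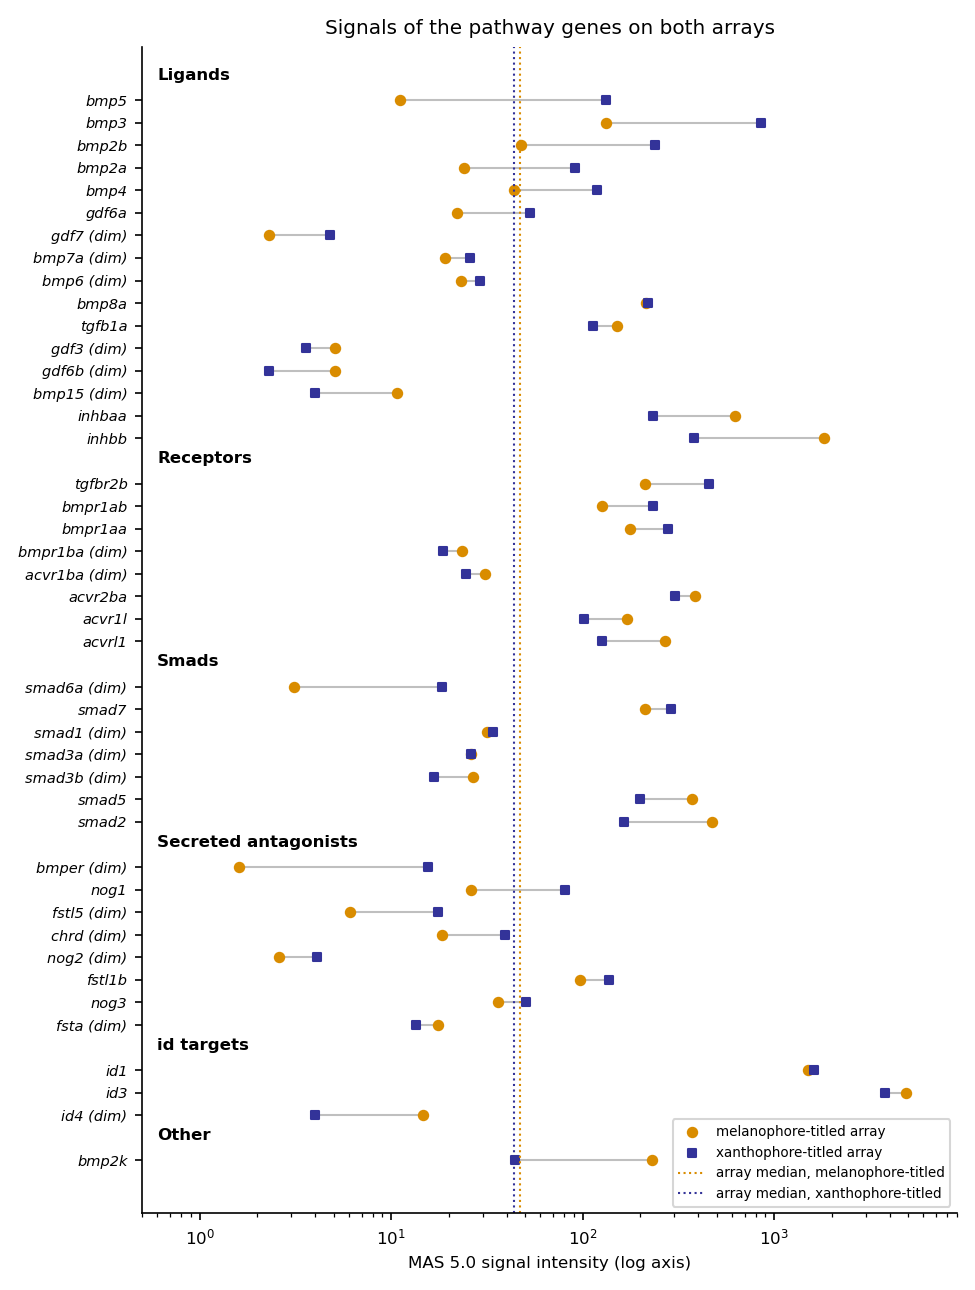
MAS 5.0 signal intensity (log axis) of the 43 genes by role, from the probe set with the highest mean log2 signal; circles are the melanophore-titled and squares the xanthophore-titled array, and dotted lines mark the array medians of 47.2 and 43.5. The squares of bmp2a, bmp2b, bmp3, bmp4 and bmp5 lie to the right of their circles, and those of inhbaa and inhbb to the left.

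Among the BMP ligands, bmp3 had a signal of 132.7 on the melanophore-titled array against 854.9 on the other. Its xanthophore-titled signal was thus 6.44-fold the brighter (8.39-fold with the spike-ins set equal). In mammals BMP3 opposes the signalling of other BMPs and is made in bone. The signal of bmp2b, the ligand whose loss in the zebrafish swirl mutant removes ventral tissues of the embryo, was 47.6 against 239.5. This is 5.03-fold towards the same array (6.56-fold with the spike-ins set equal), but the dim signal lay just above the floor, and with a floor at the 65th percentile only a bound of at least 2.03-fold remained.

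The related ligands bmp4, bmp5 and bmp2a were dimmer. They were measured through their xanthophore-titled signal alone, which fixed their direction, so it adds nothing to that of bmp3 and bmp2b. For bmp4 the signals were 44.0 and 118.0, at least 2.50-fold, and for bmp5 they were 11.1 and 132.8, at least 2.81-fold. With the spike-ins set equal these bounds were 3.26-fold and 3.67-fold. The bmp2b duplicate bmp2a had 24.1 against 90.8, which is bound only to at least 1.92-fold as deposited and at least 2.51-fold with the spike-ins set equal. The bounds of bmp4 and bmp5 fell under 2-fold with the higher floor and when ribosomal protein genes were set equal.

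Other BMP and GDF ligands showed no such difference or were too dim to compare. The ligand bmp8a was alike on both arrays at 213.9 and 220.1, and all 3 of its probe sets lay within 1.22-fold. The signals of gdf6a, a ligand that in zebrafish embryos limits the number of melanocytes, were 22.1 and 52.9, near the floor and bound only to at least 1.12-fold. Of the 13 ligands grouped by their names as BMPs or GDFs, 7 were measured. Of these, 4 passed 2-fold towards the xanthophore-titled array (background 4.09%) and none towards the other (background 15.5%). Among the 7, bmp2a, bmp4, bmp5 and gdf6a were measured through their xanthophore-titled signal alone, which fixed their direction. The remaining 6, bmp6, bmp7a, bmp15, gdf3, gdf6b and gdf7, were under both medians.

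Activin ligand genes ran in the opposite direction. The activin beta-B subunit gene inhbb had signals of 1825.9 and 379.8, the first from the melanophore-titled array as in every pair of signals here, a 4.81-fold difference (3.69-fold with the spike-ins set equal). The beta-A subunit gene inhbaa stood at 627.1 and 232.4, or 2.70-fold (2.07-fold with the spike-ins set equal). Its second probe set, at 100.5 and 79.9, differed by only 1.26-fold the same way, so the size for inhbaa depends on the probe set and its median over both is 1.84-fold. The TGF-beta ligand tgfb1a, at 151.0 and 112.7, lay within 2-fold, a difference smaller than the SD between probe sets.

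**Figure D2:**
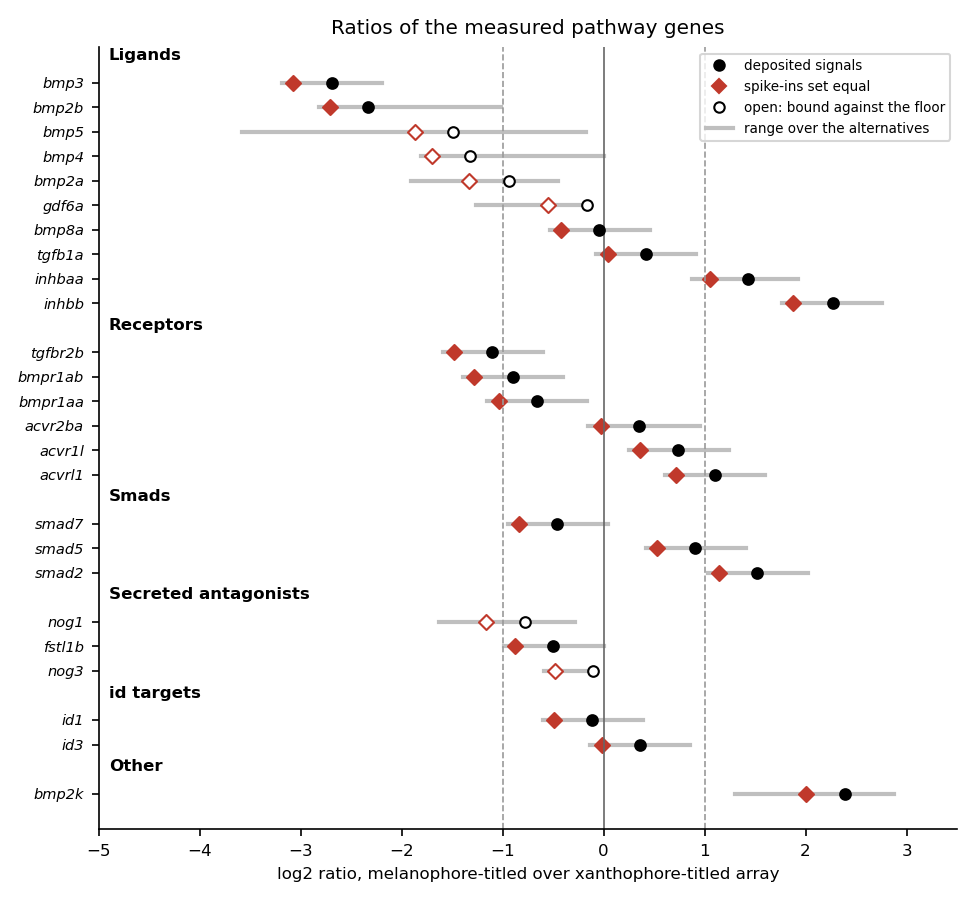
Log2 ratio of the 25 measured genes, with positive values brighter on the melanophore-titled array; circles are deposited signals, diamonds have the spike-ins set equal, open symbols are bounds, grey bars span the alternatives and dashed lines mark 2-fold. The bars of bmp2b and bmp3 lie wholly below -1, and those of inhbb, smad2 and bmp2k wholly above 1.

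Of the 6 measured receptors, 1 passed 2-fold towards the xanthophore-titled array (background 4.09%) and 1 towards the melanophore-titled array (background 15.5%) as deposited. With the spike-ins set equal the counts were 3 (background 8.21%) and 0 (background 6.56%). The type II TGF-beta receptor tgfbr2b had 211.8 and 454.4, or 2.15-fold towards the xanthophore-titled array. This was 2.80-fold with the spike-ins set equal and 1.52-fold when ribosomal protein genes were set equal. The second probe set of tgfbr2b, at 28.4 and 113.9, gave at least 2.41-fold. Both type I BMP receptors of the bmpr1a pair leaned the same way without reaching 2-fold as deposited. The signals of bmpr1aa were 176.2 and 277.8 (1.58-fold) and those of bmpr1ab 125.5 and 233.9 (1.86-fold), which became 2.05-fold and 2.43-fold with the spike-ins set equal. The second measured probe set of bmpr1aa, at 45.4 and 53.4, gave only at least 1.13-fold.

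On the melanophore-titled array the type I receptor acvrl1, known as Alk1 and active in blood vessel endothelium, was brighter at 269.1 against 125.4. This is 2.15-fold as deposited and 1.65-fold with the spike-ins set equal. The BMP type I receptor acvr1l, whose loss gives the zebrafish lost-a-fin mutant, stood at 169.7 and 101.5, within 2-fold. For acvr2ba, a type II receptor for activins and BMPs, the probe sets disagreed in size: 386.8 and 303.6 for the first, 324.3 and 108.9 (2.98-fold) for a second that is open to cross-hybridisation, and 10.2 and 14.4, under both medians, for the last. The type I receptors bmpr1ba and acvr1ba were too dim to compare.

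Among the Smads, smad2, the effector of activin and TGF-beta, had signals of 472.2 and 164.2, 2.88-fold (2.21-fold with the spike-ins set equal). It went with the activin subunits towards the melanophore-titled array, while tgfbr2b went the other way. The BMP effector smad5 leaned to the same side as smad2, at 371.5 and 198.0 (1.88-fold, and 1.44-fold with the spike-ins set equal), opposite to bmp2b and bmp3. The inhibitory smad7 stood at 211.0 and 289.8, within 2-fold. Second probe sets of smad2 (2.8 and 2.5) and smad5 (1.1 and 1.2) were at the bottom of both arrays, so each value rests on 1 probe set. The genes smad1, smad3a, smad3b and smad6a lay under both medians.

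Secreted antagonists were mostly dim. The noggin gene nog1 had 26.2 and 81.1, towards the xanthophore-titled array by at least 1.72-fold (at least 2.24-fold with the spike-ins set equal). For nog3 the signals were 36.3 and 50.6, near the floors. The follistatin-like gene fstl1b stood at 97.1 and 137.5, within 2-fold. Under both medians lay chrd (chordin), fsta (follistatin), nog2, fstl5 and bmper, a BMP-binding protein. As deposited, none of the 3 measured antagonists passed 2-fold towards the xanthophore-titled array (background 4.09%) or the other (background 15.5%). So few genes cannot be told from the background. For nog1 and nog3 the floor limited the ratio, and their xanthophore-titled signal alone was measured, which fixed the direction.

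Of the id targets, id1 and id3 were bright and lay within 2-fold. The signals of id1 were 1499.4 and 1618.4, a log2 ratio of -0.11 that became -0.49 with the spike-ins set equal and 0.39 when ribosomal protein genes were set equal. Those of id3 were 4863.4 and 3786.0, a log2 ratio of 0.36, and -0.02 with the spike-ins set equal. Neither reached 2-fold under any scaling run. The log2 ratio of id1 ran from -0.6 to 0.39 (1.08-fold to 1.52-fold in size). That of id3 ran from -0.13 to 0.86 (1.01-fold to 1.82-fold in size). The third, id4, was under both medians at 14.7 and 4.0.

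The kinase bmp2k, first found as a gene that BMP2 induces in mouse bone-forming cells and not part of the receptor cascade, had 230.5 and 44.1. It differed by 5.23-fold towards the melanophore-titled array (4.01-fold with the spike-ins set equal, and at least 2.46-fold with the higher floor). In the RefSeq annotation of zebrafish assembly GRCz12tu, bmp2k and bmp3 lie on the same chromosome with 5 protein-coding genes between them, and their ratios were opposite. The receptor genes acvr1ba, dim on both arrays, and acvrl1 are direct neighbours.

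**Figure D3:**
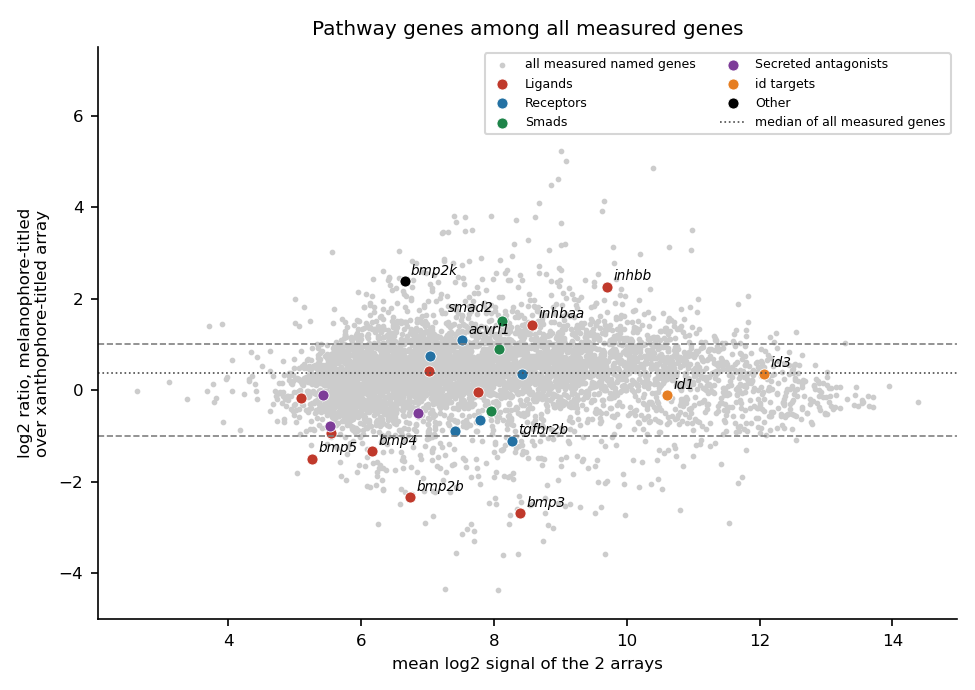
Log2 ratio against the mean log2 signal of the arrays for all measured named genes (grey) and for the pathway genes by role; dashed lines mark 2-fold and the dotted line the median of all measured genes, 0.37. The ligands bmp3 and bmp2b lie at -2.69 and -2.33, and on the bright side id3 lies at 0.36, close to the dotted line, and id1 below it at -0.11.

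Agreement between probe sets could be checked for few members. Of the 9 genes with more than 1 probe set, 5 had at least 2 measured ones, and in all 5 (acvr2ba, bmp8a, bmpr1aa, inhbaa and tgfbr2b) these leaned the same way. The same count was not made over all genes, so it has no background. For bmpr1aa and tgfbr2b the second probe set was measured through its xanthophore-titled signal alone, which fixed its direction. The bmp8a probe sets differed by 1.22-fold at most, and the acvr2ba probe set under both medians leaned the other way. The 18 genes under both medians had melanophore-titled signals from 1.6 to 31.8 and xanthophore-titled signals from 2.3 to 39.4, and no fold is given for them.

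Further genes of the pathway outside the naming rule, from a list of 88 symbols of co-receptors, modulators, regulators of Smads and known targets, were examined beside the members. Named probe sets existed for 51, of which 32 were measured. Of the 32, 8 passed 2-fold towards the xanthophore-titled array (25%, background 4.09%) and 2 towards the melanophore-titled array (6.25%, background 15.5%), beside 14 within 2-fold, 7 with only a bound under 2-fold and 1, furina, without a usable ratio. The list's median log2 ratio was -0.29, beside the 0.37 of all measured genes. With the spike-ins set equal the counts were 13 (background 8.21%) and 1 (background 6.56%). Among the 8, runx2a, vox, rgma and sost were measured through their xanthophore-titled signal alone. So were bgnb, ccn2b, furinb, smurf2, thbs1b and twsg1b among the others, while nedd4l was measured through its melanophore-titled signal alone. This fixed their direction, and the list's median includes them.

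The 8 included targets and matrix genes. The homeobox gene msx1b, a BMP target, had signals of 328.2 and 903.8, 2.75-fold towards the xanthophore-titled array. For tgfbi, a matrix protein gene that TGF-beta induces in mammals, they were 291.8 and 919.0 (3.15-fold), and for dcn, whose product decorin binds TGF-beta, 311.4 and 1106.4 (3.55-fold). The bone regulator runx2a (29.9 and 147.6) was at least 3.13-fold brighter, the homeobox gene vox (39.4 and 153.6) at least 3.25-fold, the BMP co-receptor rgma (24.7 and 123.8) at least 2.62-fold and the secreted inhibitor sost (21.8 and 113.2) at least 2.40-fold. The kinase adaptor tab1 stood at 81.9 and 190.1, or 2.32-fold.

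The genes of this list past 2-fold towards the melanophore-titled array were smurf1 and lemd3. The ubiquitin ligase smurf1, which marks Smads and receptors for breakdown, had 224.6 and 71.3, a 3.15-fold difference (2.42-fold with the spike-ins set equal). The nuclear membrane gene lemd3, whose human product binds Smads and restrains them, had 960.2 and 466.1, or 2.06-fold (1.58-fold with the spike-ins set equal). The BMP pseudoreceptor bambia, at 633.8 and 686.6, and the corepressor tgif1, at 2089.1 and 1260.7, lay within 2-fold.

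Markers of other fin cells were set beside these genes. Of 28 listed connective tissue and bone markers, 17 were named on the array and 15 measured. Among the 15, 13 passed 2-fold towards the xanthophore-titled array (background 4.09%), the side of bmp2b, bmp3, bmp4, bmp5 and tgfbr2b. The count was also 13 with the spike-ins set equal (background 8.21%). The bone marker alpl leaned the other way, at 86.3 and 49.5 (1.74-fold). Of the 15, runx2a and twist1a were measured through their xanthophore-titled signal alone, which fixed their direction. The 17 summed to a signal of 6438.9 against 25775.1, and the osteoblast regulators sp7 and runx2b lay under both medians. This list shares dcn, runx2a, runx2b and sp7 with the list of further pathway genes. Of 16 endothelial markers, 7 were named and 6 measured. Among the 6, 5 passed 2-fold towards the melanophore-titled array (background 15.5%), the side of inhbb, smad2 and acvrl1. With the spike-ins set equal 4 did (background 6.56%). Of the 6, fli1rs and tie1 were measured through their melanophore-titled signal alone, which fixed their direction. The 7 summed to 4033.2 against 931.0, with tek under both medians. Xanthophore pigment genes lay mostly on the same side, with 5 of 7 measured past 2-fold (background 15.5%), while dct and the globin gene hbaa1 lay on the side of bmp3. For csf1ra and pax7a among the 7, and for hbaa1, only the brighter signal reached its median, which again fixed the direction. Detection calls were not used, so a signal alone does not show that a cell type was present. The part of these cells in the ratios of the pathway genes was not tested.

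Keratinocyte markers summed to signals of 28027.6 and 25407.9, with a median log2 ratio of 0.08 over 13 measured genes. Of the 13, cdh1 (4.20-fold), krt5 (2.96-fold) and cldnb (at least 2.80-fold) passed 2-fold towards the melanophore-titled array (23.1%, background 15.5%). None passed towards the other (background 4.09%), where agr2, cldni, krt15, krt18a.1, krt4 and ppl leaned. With the spike-ins set equal agr2 reached 2.37-fold towards the xanthophore-titled array. The markers cldnb and krt94 were measured through their melanophore-titled signal alone, which fixed their direction. Leukocyte markers summed to 774.1 and 561.4, with 5 of 10 under both medians, erythrocyte markers to 135.2 and 1229.8, with 4 of 6 under both medians and 956.5 of the latter from hbaa1, and Schwann cell and neuron markers to 3760.2 and 2796.9. Of the pigment lists, 3 melanin genes summed to 100.4 and 632.5, with 590.1 of the latter from dct, and 7 xanthophore genes to 10846.0 and 5173.8.

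**Figure D4:**
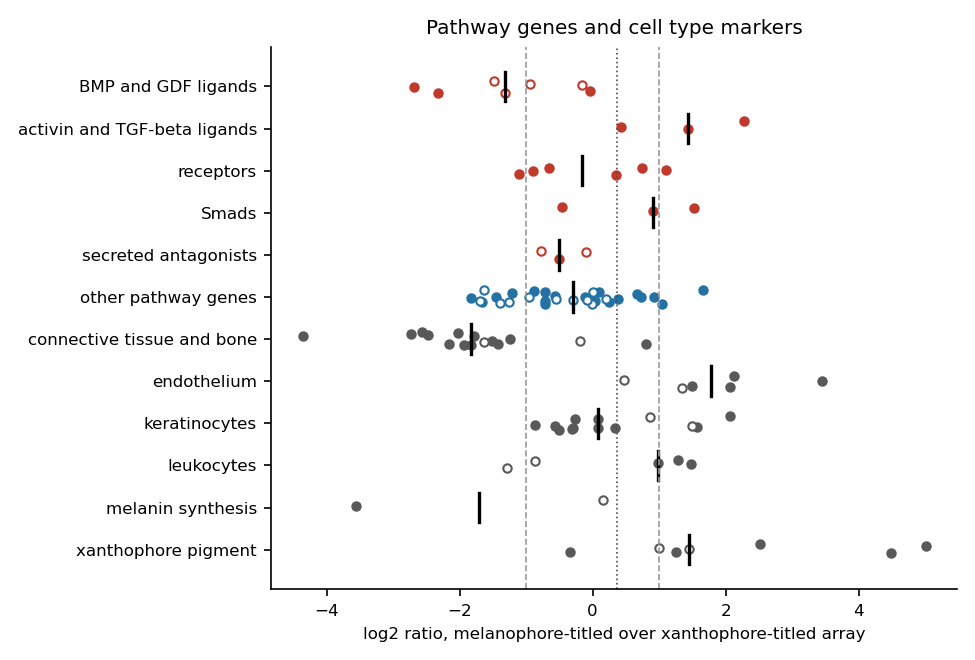
Log2 ratios of the measured genes of each group, pathway genes in red, further pathway genes in blue and cell type markers in grey; open points are bounds, black bars are medians, dashed lines mark 2-fold and the dotted line is the median of all measured genes, 0.37. The filled points of bmp3 (-2.69) and bmp2b (-2.33) lie on the side of the connective tissue and bone markers (median -1.83) and of dct (-3.56). Those of inhbb (2.27) and inhbaa (1.43) lie on the side of the endothelial markers (median 1.78) and the xanthophore pigment genes (median 1.45). The open points, those of the markers as well as those of the BMP and GDF ligands, had their direction fixed by the filter on dim signals.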

How the data were processed

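Total RNA of 2 fin pigment cell preparations was labelled with biotin and hybridised to Affymetrix zebrafish arrays, per the labels' protocols. The authors deposited MAS 5.0 signal intensity for 15617 probe sets, 115 of them controls. Which target the signals were scaled to is not stated there. Detection calls and probe-level files were not used here. The number of arrays, 1 per group, limits the precision, and no test between groups was made.

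Samples were grouped by title. Of 15502 transcript probe sets, the platform annotation gives 1 symbol to 10795 and several to 135, which were left unnamed together with the other 4572. Symbols were updated through the NCBI gene ID in RefSeq's table (1 changed), which held all 43 members. A gene took its probe set with the highest mean log2 signal. Signals under the array's median were raised to it, and differences were counted at 2-fold.

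The members and lists were chosen with earlier results of these data known. Every measured member is named with both signals, and from the list of 88 further genes those at 2-fold or more; bambia and tgif1 were added after their values were seen. Alternatives covered 5 scalings, the floor, the filter, the fold and the probe sets used. The calculation was tested on simulated data with 4-fold changes placed in bright genes only and noise smaller than the spread between probe sets. The test therefore does not cover signals near the floor, changes near 2-fold or noise as large as that spread. Python 3.11.15, numpy 2.4.6, pandas 2.3.3 and matplotlib 3.10.9 were used.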

Additional observations from a re-analysis of the deposited data

How the results depend on the processing

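Of the 10 genes at 2-fold or more, 5 (bmp2b, bmp3, inhbb, smad2 and bmp2k) stayed so the same way under every alternative that gave them a value. None of the 10 changed direction, which was largely fixed in advance. The scalings by a common factor lowered log2 ratios by at most 0.49. Only setting ribosomal protein genes equal raised them, by an amount that took bmp3 from -2.69 to -2.19. Such shifts are too small to reverse a 2-fold call. A ratio against the floor that would have turned was left without a value. The call of acvrl1 was lost with the spike-ins, trimmed means or bright medians set equal and with quantile normalization, where it stood between 1.53-fold and 1.65-fold; that of inhbaa with equal bright medians, with quantile normalization and with the median over probe sets; that of tgfbr2b with ribosomal protein genes set equal; and those of bmp4 and bmp5 with the latter and with the floor at the 65th percentile. The count of 5 genes on the xanthophore-titled array was 9 with equal spike-ins, trimmed means or bright medians (8.21%, 8.81% and 10.3% of all measured genes), 8 with quantile normalization (7.96%), a floor at the 25th percentile or no floor (6.27% each), 3 with a floor at the 65th (2.83%) or a filter at the 75th percentile (6.06%), 2 with ribosomal protein genes set equal (2.31%), 9 at 1.5-fold (8.68%) and 2 at 4-fold (1.14%). The count of 5 on the melanophore-titled array was 7 with ribosomal protein genes set equal (40.9%) and at 1.5-fold (35.5%), 4 with equal spike-ins (6.56%) or trimmed means (6.01%), with the filter at the 75th percentile (20.7%) or the median over probe sets (14.7%), 3 with equal bright medians (5.18%) or quantile normalization (6.21%) and 2 at 4-fold (2.22%). The median of -0.11 moved to -0.60 with equal bright medians and reversed to 0.39 with ribosomal protein genes set equal; both follow the shift that each scaling gives every gene, with the median of all measured genes at -0.13 and 0.89. With the filter at the 75th percentile only 15 members were measured instead of 25, so its counts of 3 and 4 come from fewer genes. Dim signals limit 18 of the 43 genes. No paired analysis was possible because each group has 1 array.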
